A study of Rattus norvegicus with 20 samples.

Results

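The genes described are 10 cytosolic and mitochondrial heat shock proteins and partner proteins: Hspa1a, Hspa1b, Hspa8, Hsp90aa1, Hsph1, Dnajb1, Hspb1, Hspd1, Hspe1 and Bag3. They were listed by name, and each was read from its brightest probe set among those annotated to exactly 1 gene symbol. Of the 10 genes, 7 had such a probe set, out of 18166 genes measured in all. Hspa1a and Hspa1b share 1 probe set, and Hsp90aa1 shares one with a pseudogene, so these 3 genes have no value of their own and their shared probe sets are given separately. The cells were INS-1, a beta-cell line from a rat insulinoma, and RNA from 20 wells was hybridised to 20 Affymetrix Rat Gene 2.0 arrays, 5 for each of 4 words in the sample titles: DMSO, IAPP, C4BPD and C4BP.

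The line had been carried as 5 clones through 10 passages, according to the series description. The clones were plated at 100000 cells per well in a 12-well plate, and exposure began about 48 h later and lasted 10 h. The exposures were monomeric islet amyloid polypeptide (IAPP, 77 uM), the peptide that aggregates into islet amyloid, IAPP with the complement inhibitor C4b-binding protein (C4BP, 0.6 uM), C4BP without IAPP, and the solvent DMSO (1%). The sample fields give the doses as 300 ug/ml of IAPP and 300 ug/ml of C4BP. The titles do not spell out which C4BP word includes IAPP. The likely reading is that C4BP stands for C4BP with IAPP and C4BPD for C4BP without it, and the title words are used as group names throughout. Of the 10 arrays whose title says IAPP or DMSO, only 2 have a treatment field that says the same, so the grouping used here rests on the titles. The labels do not say that the title number, 1 to 5, is the clone, and p-values therefore measure only the spread between these samples.

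Heat shock proteins are chaperones that bind unfolded protein and help it to fold, disaggregate or be degraded. HSP70 proteins work in cycles with J-domain partners that deliver clients and with exchange factors that release them, while HSP60 and HSP10 form the folding chamber of the mitochondrial matrix. When unfolded protein accumulates in the cytosol, heat shock factor HSF1 binds heat shock elements, inverted repeats of the letters GAA, and raises transcription of many of these genes, whereas the endoplasmic reticulum (ER) has its own chaperones under other regulators.

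Heat shock element letters were looked for in the 250 bases before the start that the RefSeq promoter table (GRCr8) gives each gene. For 6 of the 7 measured genes that start is the outer end of the gene in RefSeq. For Hspd1 it lies 295 bases inside the gene, so its window is within the annotated gene and not before its outer end. The search was for 2 adjoining units, GAANNTTC or TTCNNGAA, and for 3 adjoining units, GAANNTTCNNGAA or TTCNNGAANNTTC, on both strands, and a match of 3 units contains 2 matches of 2 units that overlap. At least 1 match of 2 units was present in the windows of 7 of 7 genes, 6 of 6 without Hspd1, against 13.5% of all 33469 promoters in the table and 11.4% of the 14564 that belong to measured genes. A match of 3 units was present in 4 of 7 windows, those of Hspa8, Hsph1, Hspd1 and Hspe1, and in 3 of 6 without Hspd1, against 0.663% of all promoters and 0.488% of those of measured genes. The letters CCAAT or ATTGG, a common promoter motif, were present in 4 of 7 windows, those of Hspa8, Hsph1, Dnajb1 and Bag3, against 34% of all promoters. A match is a description of letters and does not show that a factor was bound. The match nearest to the table's start is shown within 30 bases, to let the elements be compared, read 5′ to 3′ on the gene's strand, with the GAA and TTC units in capitals.
Hspa8, chr8:50080450-50080479, plus strand: gcggaacccTTCtgGAAggTTCtaagacag
Hsph1, chr12:10427323-10427352, plus strand: tgccgcagaTTCtgGAAagTTCtcctcagt
Dnajb1, chr19:41431142-41431171, minus strand: cgacgcatcgggaggggcgGAAggTTCtgg
Hspb1, chr12:26432392-26432421, minus strand: agatgggggcaGAAccTTCctggccctgcc
Hspd1, chr9:64084256-64084285, minus strand: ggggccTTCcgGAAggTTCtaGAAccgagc
Hspe1, chr9:64084256-64084285, plus strand: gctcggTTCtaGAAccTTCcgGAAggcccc
Bag3, chr1:192533317-192533346, plus strand: ggatgggaccaGAAgtTTCtagccggccag

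Hspd1 and Hspe1 lie head to head, and the windows searched for the pair overlap by 211 bases. Their element is therefore the same stretch read on opposite strands, counted once for each gene, and it begins 65 bases before the start of Hspe1. For Hspd1 it begins 242 bases before the start in the promoter table, and it spans bases 53 to 70 inward from the outer end of the gene. An upstream window from that outer end was not searched for Hspd1. The elements of Dnajb1, Hsph1, Hspa8 and Hspe1 ended within 48 bases of the start, at 4, 24, 43 and 48 bases from it. Those of Hspb1 and Bag3 ended 102 and 125 bases away. Bag3 held a single match, of 2 units, and its 250 upstream bases are printed whole because it was the gene with called differences in the arrays.
Bag3, chr1:192533210-192533459, plus strand: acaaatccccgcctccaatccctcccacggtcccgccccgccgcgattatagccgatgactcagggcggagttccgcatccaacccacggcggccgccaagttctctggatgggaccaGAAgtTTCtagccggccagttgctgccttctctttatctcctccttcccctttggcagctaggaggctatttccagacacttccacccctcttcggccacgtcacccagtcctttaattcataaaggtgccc

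**Figure D1:**
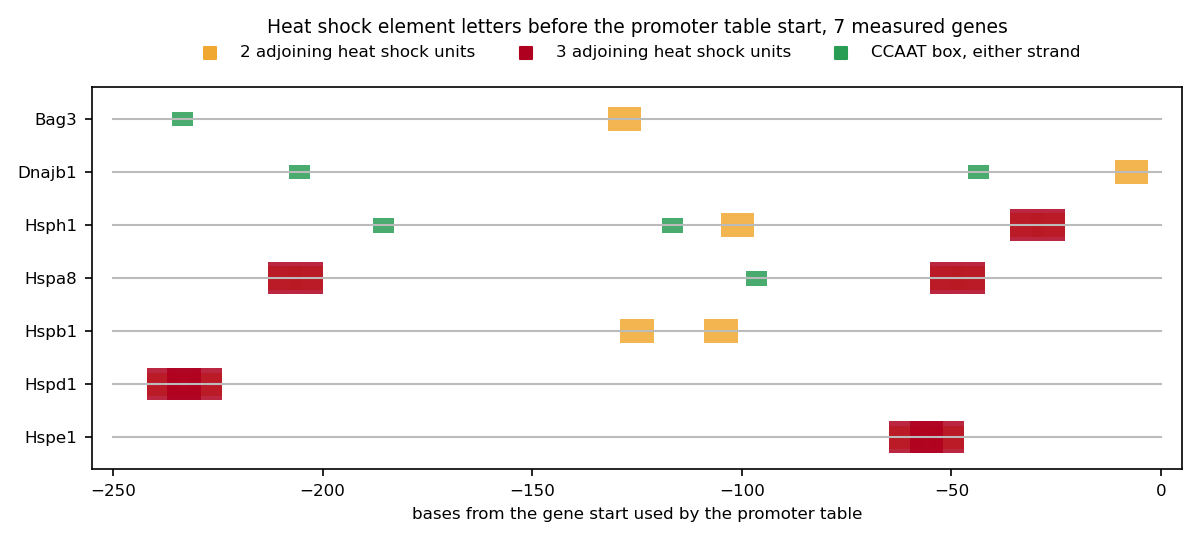
Positions of heat shock element letters and of the CCAAT box in the 250 bases before the promoter table's start of each measured gene (x axis, bases from that start, which for Hspd1 lies inside the gene; each row is 1 gene, boxes mark matches). Matches of 3 units are seen for Hspa8, Hsph1, Hspd1 and Hspe1, and the other 3 genes hold only matches of 2 units.

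The array values are intensities on a linear scale as deposited, and array medians ran from 170 to 182. All 7 measured markers of beta cells, of 10 listed, were brighter than the median probe set (177), among them Ins1, Ins2 and Iapp. Of the markers of other pancreatic, stromal and blood cell types, 26 of 29 were measured and 9 lay above that median (Gcg, Sst, Cela1, Cela2a, Ctrb1, Ptf1a, Col1a1, Col3a1 and Pdgfra). The 26 had a summed level of 12892 to 14435 over the 20 arrays, most of it from the alpha-cell marker Gcg. Gcg had a mean of 9960, beside 5910 for Ins1, 4500 for Ins2 and 11500 for Iapp. Gcg and Ctrb1 among the markers of other types, and Mafa and Slc2a2 among the beta-cell markers, differed between title groups (limma F test, adjusted p = 0.0348, 0.0164, 0.0489 and 0.00567), and their part in the results was not tested.

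Most of the heat shock genes differed little between the conditions. Against DMSO, 7 genes in 3 comparisons gave 21 differences, of which 1 passed the threshold (limma, Benjamini-Hochberg adjusted p under 0.05 over all 18166 genes), a lower level of Bag3 in C4BP. No 95% interval of these 21 reached above 1.16-fold of DMSO or below 0.807-fold. None of the 7 passed as higher in any comparison with DMSO. In such bulk samples fewer cells of a type and less RNA per cell cannot be told apart. The 3 comparisons share the same 5 DMSO arrays.

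By comparison, 0 of 7 genes passed in IAPP against DMSO, where 3.38% of all genes did, and 1 of 7 (Bag3) was under an unadjusted p of 0.05, as were 2235 of all genes. In C4BPD against DMSO 0 of 7 passed, with a background of 1.93%, and 0 of 7 were under the unadjusted 0.05, as were 2208 of all genes. In C4BP against DMSO 1 of 7 passed, with a background of 5.96%, and 2 of 7, Bag3 and Hspe1, were under the unadjusted 0.05, as were 2945 of all genes. In C4BP against IAPP 0 of 7 passed (background 0.606%; 0 of 7 and 1440 of all genes at the unadjusted 0.05). In C4BP against C4BPD 1 of 7 passed, again Bag3 (background 2.37%; 1 of 7 and 2483 of all genes at the unadjusted 0.05). In C4BPD against IAPP 0 of 7 passed (background 5.46%), with Bag3 alone under the unadjusted 0.05, as were 3308 of all genes. For the interaction, the C4BP minus C4BPD difference less the IAPP minus DMSO difference, 0 of 7 passed (background 0.0495%; 0 of 7 and 688 of all genes at the unadjusted 0.05). The F test across the 4 groups passed for 1 of 7, Bag3, with a background of 7.85%. A single gene of 7 is a result about that gene and not about the set. The median difference of the 7 genes was -0.02 log2 in IAPP, 0.01 in C4BPD and -0.02 in C4BP against DMSO, beside medians of 0.00, -0.01 and 0.00 over all genes.

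**Figure D2:**
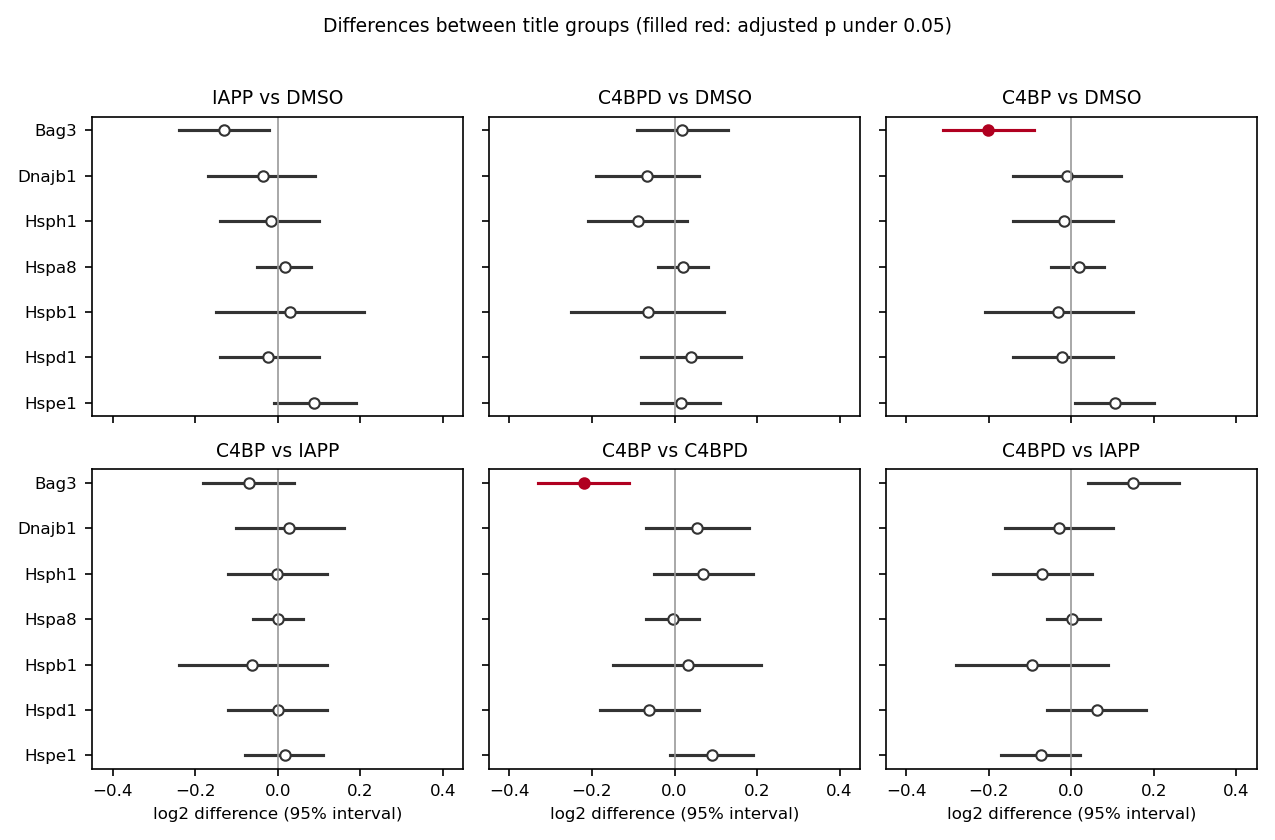
Differences between title groups for the 7 measured genes (x axis, log2 difference; points, limma estimates; lines, 95% intervals; filled red, adjusted p under 0.05). Bag3 is called in C4BP against DMSO (-0.20) and against C4BPD (-0.22), and of the other 6 genes only Hspe1 in C4BP against DMSO has an interval (0.01 to 0.20) that does not hold 0.

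Bag3, an exchange factor that releases clients from HSP70 and directs some of them to autophagy, was lower in the C4BP title group. In DMSO 1 to 5 its intensities were 1732, 1616, 1618, 1722 and 1712, with a mean of 1680 ± 57.9 (SD, n = 5). In C4BP 1 to 5 they were 1567, 1495, 1382, 1345 and 1531, with a mean of 1460 ± 96.1 (SD, n = 5). All 5 C4BP arrays lay below all 5 DMSO arrays. The share of all genes whose arrays separate in this way is not given here, so such separations are read only as descriptions. The fall was 0.87-fold, a log2 difference of -0.20 with a 95% interval of -0.31 to -0.09 (limma, adjusted p = 0.0239).

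Bag3 intensities were 1930, 1681, 1606, 1710 and 1602 in C4BPD 1 to 5, with a mean of 1710 ± 134 (SD, n = 5). These overlapped the DMSO arrays, and the log2 difference was 0.02 (limma, adjusted p = 0.936). All 5 C4BPD arrays lay above all 5 C4BP arrays, the highest of which was 1567 beside a lowest C4BPD value of 1602. Bag3 was 0.859-fold in C4BP relative to C4BPD, a log2 difference of -0.22 with an interval of -0.33 to -0.11 (limma, adjusted p = 0.0245). This comparison shares the C4BP arrays with the one against DMSO.

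In IAPP 1 to 5 the Bag3 intensities were 1622, 1514, 1472, 1529 and 1542, with a mean of 1540 ± 54.9 (SD, n = 5). Of these, 4 lay below every DMSO array and IAPP 1 lay within the DMSO range. The log2 difference from DMSO was -0.13, with an interval of -0.24 to -0.02, and did not pass (limma, adjusted p = 0.269). C4BP and IAPP overlapped, at a difference of -0.07 (limma, adjusted p = 0.892), so the call against DMSO in C4BP and its absence in IAPP do not show that these 2 groups differ. C4BPD stood 0.15 above IAPP on the log2 scale, with an interval of 0.04 to 0.26 (limma, adjusted p = 0.115). In that comparison all 5 same-numbered pairs of arrays deviated together, and with the title number as a block the difference passed (limma, adjusted p = 0.0243). The interaction for Bag3 was -0.09, with an interval of -0.24 to 0.06 (limma, adjusted p = 1).

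Both Bag3 calls lay near the threshold. Against DMSO the call was lost without DMSO 1 (limma, adjusted p = 0.0564), DMSO 4 (0.0594), DMSO 5 (0.0601), C4BP 3 (0.065) or C4BP 4 (0.0774). Against C4BPD it was lost without C4BPD 1 (limma, adjusted p = 0.0564), C4BPD 4 (0.0574), C4BP 3 (0.0575) or C4BP 4 (0.0788). Without all 4 arrays of title number 2, 3, 4 or 5 both calls were lost (limma, adjusted p = 0.0693, 0.0887, 0.218 and 0.083 against DMSO, and 0.117, 0.078, 0.208 and 0.0574 against C4BPD), and without number 1 both passed (0.00907 and 0.03). With arrays centred on their medians the adjusted p was 0.0557 against DMSO and 0.0668 against C4BPD. Each call was kept in 6 of 9 scaling and model alternatives. With the title number as a block both passed (limma, adjusted p = 0.00312 against DMSO and 0.00318 against C4BPD). In each of these comparisons only 3 of 5 same-numbered pairs of arrays correlated over 0.1. The direction turned, to 0.08 and 0.10 on the log2 scale, when arrays were grouped by the treatment field.

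The level of Bag3 over the 20 arrays ran most closely with those of Aacs (Pearson r = 0.90), Abcg1 (0.88), Tns3 (0.87), Dapk1 (0.87) and Lpcat1 (0.86). These are descriptions over 20 arrays that share 4 groups and 5 title numbers, and 39 genes had an r above 0.8 with Bag3. Aacs differed by -0.26 on the log2 scale between C4BP and DMSO, Abcg1 by -0.27, Tns3 by -0.23, Lpcat1 by -0.33 and Dapk1 by -0.13. The difference of Dapk1 did not pass (limma, adjusted p = 0.0678). These genes were chosen for likeness to Bag3 on the same arrays, so lower levels in C4BP follow in part from that choice.

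Dnajb1, the J-domain protein that delivers clients to cytosolic HSP70, differed by title number more than by condition. In number order its intensities were 1932, 1800, 1779, 1675 and 1633 in DMSO, and 1949, 1671, 1704, 1602 and 1676 in IAPP. They were 1850, 1681, 1674, 1696 and 1527 in C4BPD, and 1938, 1737, 1765, 1711 and 1604 in C4BP. The array numbered 1 was the highest in each of the 4 groups, and all groups overlapped. Of the sum of squares of Dnajb1, 82% lay between title numbers and 7.46% between groups, beside medians over all genes of 28.3% and 18%. The mean was 1917 for number 1 and 1610 for number 5. Against DMSO the log2 difference was -0.04 in IAPP (interval -0.17 to 0.09), -0.07 in C4BPD (-0.19 to 0.06) and -0.01 in C4BP (-0.14 to 0.12), and none passed (limma, adjusted p = 0.936, 0.745 and 0.973). With the title number as a block the intervals were -0.10 to 0.03, -0.13 to 0.00 and -0.08 to 0.05. None passed with the block either (limma, adjusted p = 0.641, 0.276 and 0.905).

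Hsph1, the HSP110 exchange factor that acts with HSP70 in disaggregation, had the same feature. Its intensities were 1886, 1851, 2083, 1864 and 1736 in DMSO, and 1909, 1861, 1950, 1864 and 1716 in IAPP. They were 1845, 1815, 1903, 1679 and 1623 in C4BPD, and 1886, 1930, 1898, 1928 and 1656 in C4BP. The array numbered 5 was the lowest in each group. Title number held 69.6% of the sum of squares and group 15.1%. In C4BPD all 5 arrays lay below the DMSO array of the same number, yet the log2 difference of -0.09 did not pass (interval -0.21 to 0.03; limma, adjusted p = 0.59). IAPP and C4BP each differed from DMSO by -0.02 (interval -0.14 to 0.10 in both). With the title number as a block the C4BPD interval was -0.16 to -0.02, which does not hold 0. The difference did not pass with the block either (limma, adjusted p = 0.16).

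**Figure D3:**
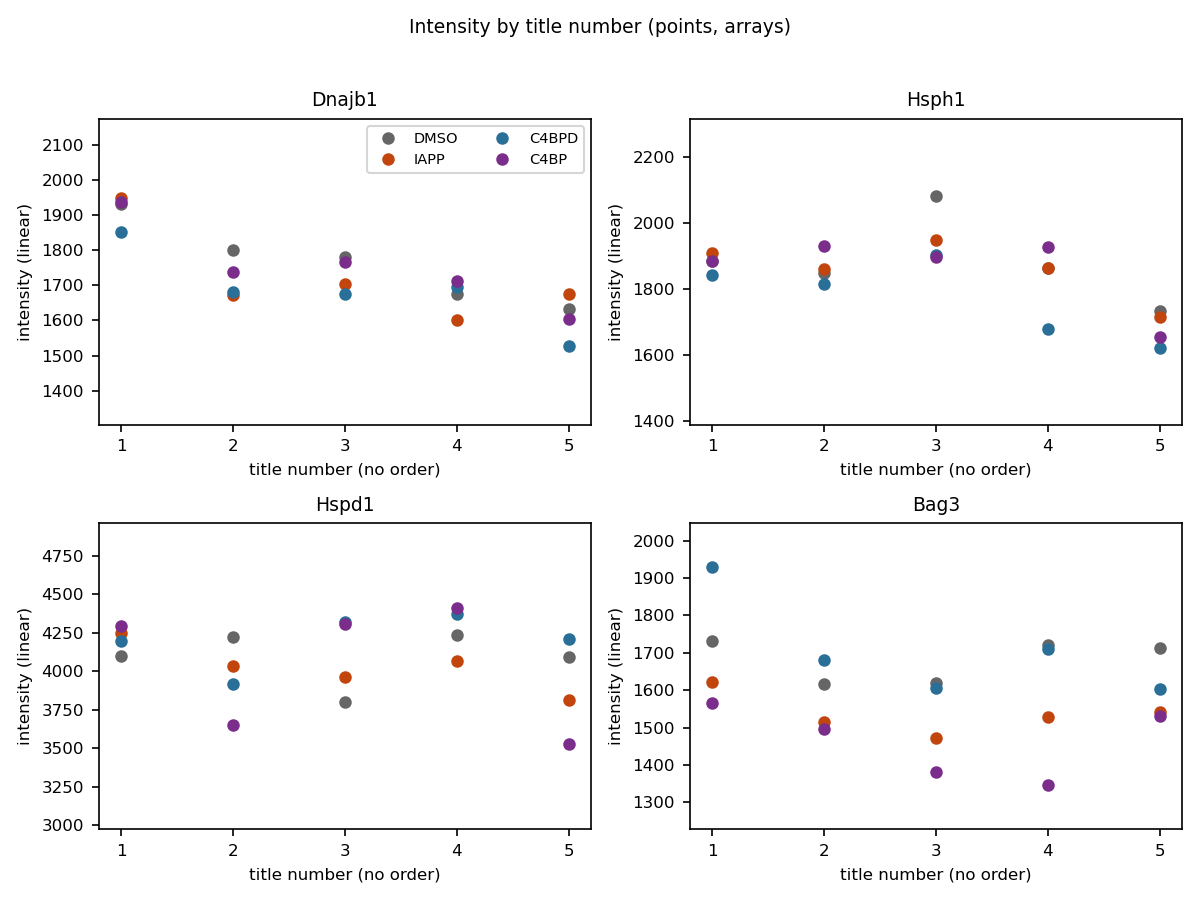
Intensity (y axis, linear) of 4 genes by the number in the sample title (x axis; points are arrays, coloured by title group). Dnajb1 arrays numbered 1 are the highest of their groups and Hsph1 arrays numbered 5 the lowest, whereas for Bag3 the C4BP array is the lowest of its number at every number.

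Hspa8, the constitutive HSP70 of the cytosol (HSC70), varied the least of the 7. Its intensities were 13522, 13114, 13867, 13593 and 13392 in DMSO and 13950, 13737, 13339, 13788 and 13501 in IAPP. They were 13693, 13639, 13859, 13582 and 13657 in C4BPD and 13736, 13065, 14098, 13731 and 13702 in C4BP. The highest of the 20 values was 1.08 times the lowest, and the 4 groups overlapped. The residual SD within groups was 0.028 on the log2 scale, beside a median of 0.1 over all genes, and 0.292% of genes, Hspa8 among them, had one as small or smaller. Hspa8 was bright, and its spread was not compared with that of genes of like intensity. Each exposure differed from DMSO by 0.02 on the log2 scale, with upper limits of 1.06-fold in all 3 (limma, adjusted p = 0.938, 0.861 and 0.884).

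Hspb1, the small heat shock protein HSP27, was dim on all arrays. Its group means were 107 ± 9.27, 109 ± 6.06, 102 ± 6.67 and 105 ± 16.9 (SD, n = 5 each) in DMSO, IAPP, C4BPD and C4BP. All lay under the median probe set of 177, so its signal was not shown to be above background. The 20 values ran from 84 to 127 with full overlap of the groups, and no difference passed.

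Hspd1, the mitochondrial chaperonin HSP60, did not differ beyond its spread. Its intensities were 4102, 4220, 3803, 4235 and 4091 in DMSO and 4250, 4037, 3963, 4064 and 3813 in IAPP. They were 4199, 3919, 4319, 4374 and 4210 in C4BPD and 4297, 3653, 4309, 4408 and 3529 in C4BP. In C4BP, arrays 2 and 5 lay below every DMSO array and arrays 1, 3 and 4 above every one. The log2 difference from DMSO was -0.02 in IAPP (interval -0.14 to 0.10), 0.04 in C4BPD (-0.08 to 0.16) and -0.02 in C4BP (-0.14 to 0.10). A second Hspd1 probe set gave no difference between groups either (limma F test over all probe sets, adjusted p = 0.998). The deviations of the 2 probe sets from their group means ran together over the 20 arrays (Pearson r = 0.66, permutation p = 0.0018, adjusted p = 0.0036; Spearman rho = 0.71, permutation p = 0.00057, adjusted p = 0.0011; r = 0.62 without the 2 arrays farthest from the median).

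Hspe1, the HSP10 lid of the same chamber, had intensities of 2861, 2853, 3122, 2799 and 2680 in DMSO and 3087, 3072, 3073, 2998 and 2971 in IAPP. They were 2754, 3095, 2897, 2877 and 2834 in C4BPD and 2978, 3202, 3044, 3341 and 2838 in C4BP. DMSO 3 lay above all IAPP arrays, and the other 4 DMSO arrays lay below all of them. The log2 difference from DMSO was 0.09 in IAPP (interval -0.01 to 0.19; limma, adjusted p = 0.491), 0.01 in C4BPD (adjusted p = 0.947) and 0.11 in C4BP (0.01 to 0.20; adjusted p = 0.257). None passed, and in C4BP the upper limit was 1.15-fold. The same element lies in the windows of Hspd1 and Hspe1, and their deviations from group means had a Pearson r of 0.02 over the 20 arrays (permutation p = 0.93; Spearman rho = 0.02, permutation p = 0.94; 2 pairs of probe sets were compared, adjusted p = 0.93 and 0.94). Without the 2 arrays farthest from the median, r was -0.19. Whether the element acts on both genes was not tested.

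**Figure D4:**
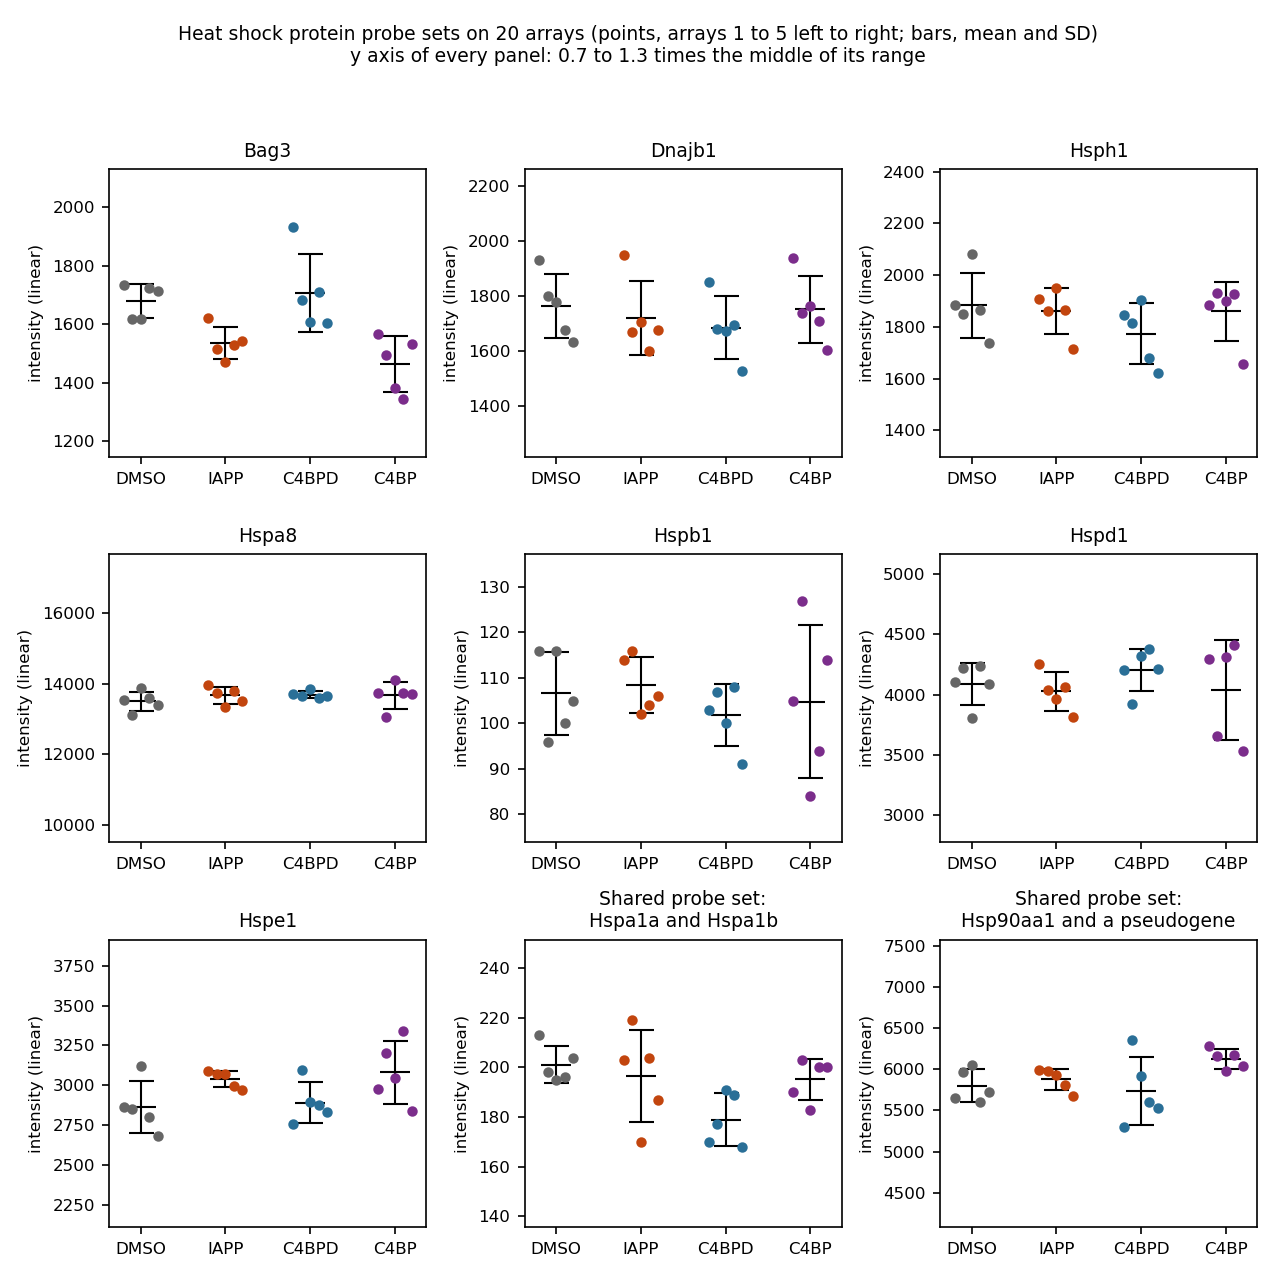
Intensities (y axes, linear, each from 0.7 to 1.3 times the middle of its own range and not from 0) of the 7 measured genes and 2 shared probe sets on 20 arrays, by title group; bars show the mean and SD of 5 arrays. For Bag3 the C4BP arrays (1345 to 1567) lie below all DMSO arrays (1616 to 1732), and the groups overlap for the other 6 genes. The share of all genes without overlap is not given here.

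The stress-inducible HSP70 genes Hspa1a and Hspa1b were read together, from a probe set that cannot tell them apart. Its intensities were 213, 198, 195, 196 and 204 in DMSO and 203, 219, 170, 204 and 187 in IAPP. They were 170, 177, 191, 189 and 168 in C4BPD and 190, 203, 183, 200 and 200 in C4BP. These values lie near the median probe set of 177. All 5 C4BPD arrays lay below all 5 DMSO arrays, at a log2 difference of -0.17 (interval -0.30 to -0.04) that did not pass in the fit over all probe sets (limma, adjusted p = 0.337). The differences in IAPP and C4BP were both -0.04 against DMSO, with upper limits of 1.06-fold for both. The probe set of Hsp90aa1, the inducible cytosolic HSP90, and its pseudogene had group means of 5800 ± 201, 5880 ± 132, 5740 ± 412 and 6130 ± 122 (SD, n = 5 each) in DMSO, IAPP, C4BPD and C4BP. Its difference from DMSO was 0.08 in C4BP (interval -0.01 to 0.17), 0.02 in IAPP and -0.02 in C4BPD, and none passed (limma over all probe sets, adjusted p = 0.566, 0.985 and 0.949).

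Other genes of the heat shock system, in lists drawn up by role, had few calls against DMSO. In cytosolic HSP70, HSP110 and their exchange factors, 13 of 18 listed genes were measured, and Bag3 was the only one called, with list medians of -0.017, -0.026 and -0.031 log2 in IAPP, C4BPD and C4BP. Of HSP90 and its co-chaperones 15 of 18 were measured and 0 passed, with differences between -0.15 and 0.10. Hsp90ab1, the constitutive HSP90, differed from DMSO by -0.02, 0.05 and 0.01. Among cytosolic J-domain proteins 11 of 12 were measured and 1, Dnajc2, a partner of HSP70 on the ribosome, was higher in C4BP than in DMSO (0.19; limma, adjusted p = 0.0328). That call was lost without DMSO 2, 4 or 5 or C4BP 1, 2 or 3 (adjusted p = 0.0803, 0.0779, 0.0877, 0.0728, 0.0876 and 0.0784).

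The 7 small heat shock proteins were all measured and 0 passed against DMSO, with medians of -0.0072, -0.086 and -0.079 log2. Hspb1, Hspb2, Hspb3, Hspb7, Hspb8 and Cryab had group means under the median probe set of 177. Their signal was therefore not shown to be above background, and the list medians rest mostly on them. Hspb6 (HSP20) was 0.24 higher in C4BPD than in IAPP (limma, adjusted p = 0.0119). This Hspb6 call was lost without the arrays of title number 2, 4 or 5 (limma, adjusted p = 0.0972, 0.0965 and 0.054). Of mitochondrial chaperones and proteases 15 of 16 were measured and 0 passed. Hspa9, the mitochondrial HSP70, differed from DMSO by -0.01, -0.05 and -0.01, and Lonp1, a matrix protease, by 0.05, 0.02 and -0.01. Of subunits of CCT, the cytosolic chaperonin, and of prefoldin 12 of 14 were measured and 0 passed. Of proteasome subunits 30 of 31 were measured and 0 passed, with differences between -0.11 and 0.08.

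The 4 heat shock factors and regulators were all measured and 0 passed. Hsf1 differed from DMSO by 0.06, -0.03 and 0.01 in IAPP, C4BPD and C4BP, and Hsf2 by 0.09, -0.03 and 0.09. Of other heat-inducible genes 12 of 16 were measured, and Zfand2a, which encodes the proteasome-associated protein AIRAP, was 0.19 higher in IAPP than in DMSO (limma, adjusted p = 0.0243) and 0.24 lower in C4BPD than in IAPP (log2 difference -0.24; adjusted p = 0.00355). The first of these calls was lost without DMSO 2, 4 or 5 or IAPP 1, 2 or 3 (adjusted p = 0.0613, 0.0816, 0.0733, 0.0571, 0.0597 and 0.0615). In none of these 9 lists did more than 1 gene pass in any comparison.

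Chaperones of the ER, the most similar list by function, gave other counts on the same arrays. Of 14 measured, 5 were lower in IAPP, 5 in C4BPD and 9 in C4BP than in DMSO and 0 were higher, with list medians of -0.17, -0.2 and -0.29 log2. Over all genes 3.38%, 1.93% and 5.96% were called in these comparisons, in either direction. The list was chosen with earlier results of these data known. The ER HSP70, Hspa5 (BiP), fell from 13400 ± 337 in DMSO to 11500 ± 231 in C4BP (SD, n = 5; log2 difference -0.21; limma, adjusted p = 0.000106), where the cytosolic HSP70, Hspa8, differed by 0.02. The IAPP count was 2 without DMSO 1, DMSO 3, IAPP 2, IAPP 4 or IAPP 5. The C4BPD count was 2 without DMSO 3, C4BPD 2 or C4BPD 5 and 3 without C4BPD 4. Without title number 2, 4 or 5 the IAPP and C4BPD counts were both 2, and without number 1 both were 3. The C4BP count was 7 to 10 over the arrays and title numbers left out. None of the 12 ER chaperones with a promoter in the RefSeq table held heat shock element letters of 2 units in 250 bases. Over promoters of measured genes the share was 11.4%, and 12 promoters are too few to tell 0 from that share. Of the heat shock genes 7 of 7 held such letters, or 6 of 6 without Hspd1. The difference between the lists was not tested.

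**Figure D5:**
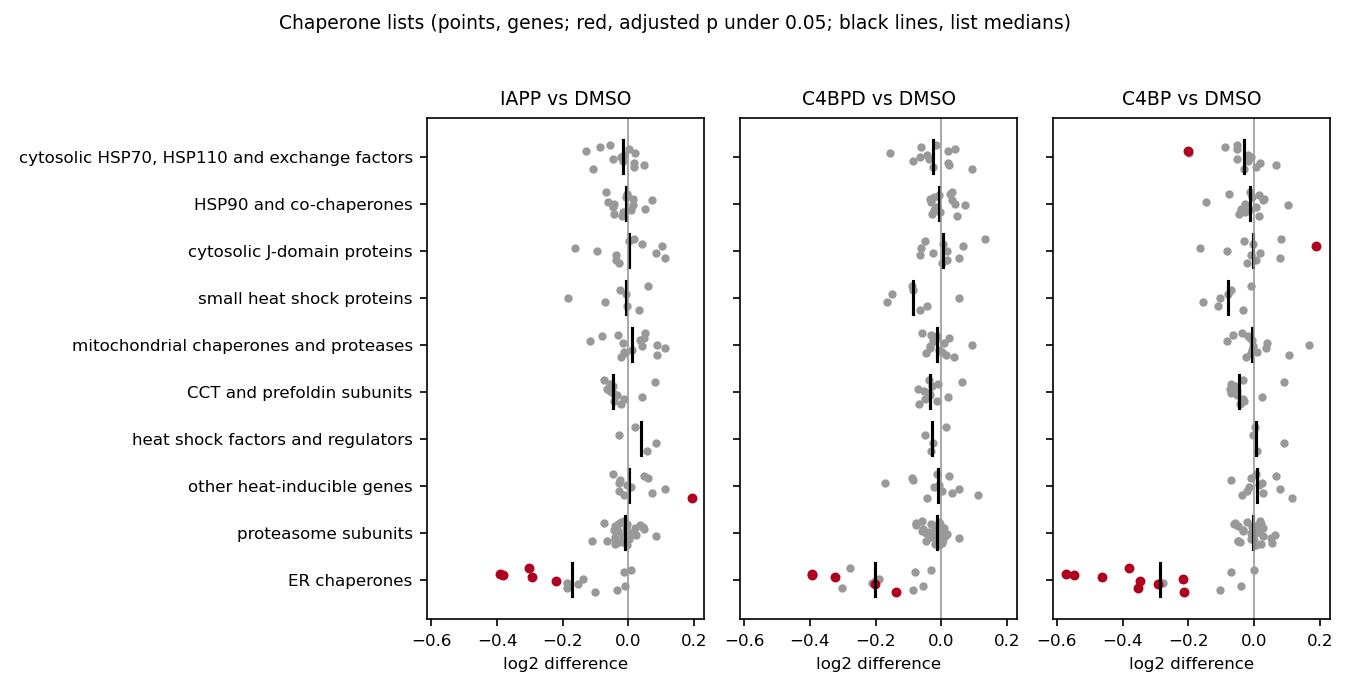
Log2 difference from DMSO (x axes) of each measured gene in 10 lists by role (points; red, limma adjusted p under 0.05; black lines, list medians) in IAPP, C4BPD and C4BP. The 9 lists outside the ER hold 3 red points in all, Bag3 and Dnajc2 in C4BP and Zfand2a in IAPP, and the ER chaperones have medians of -0.17, -0.2 and -0.29.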

How the data were processed

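Total RNA of 20 INS-1 wells had been labelled with biotin and hybridised to Rat Gene 2.0 arrays. The deposited values are linear intensities, 1 per probe set, which the authors made with Affymetrix Expression Console, per the submitters' processing notes. No source used here gives its version, algorithm, background correction or annotation, and the linear scale was read from the values. Scanner files and detection calls were not used, and the number of arrays limits the precision.

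Of 36685 probe sets, 190 controls were left out. The platform annotation gave 1 symbol to 18511 probe sets, several to 575 and none to 17599. A gene with more than 1 probe set (291 genes) was read from the brightest, which left 18166 genes. The log2 of each deposited intensity was taken with no further scaling or filter. A linear model of the 4 title groups was fitted to all 20 arrays in limma 3.58.1 (R 4.3.3), with lmFit followed by eBayes and 16 residual degrees of freedom, two-sided, with Benjamini-Hochberg adjustment over all genes and a threshold of 0.05. Probe sets of several symbols were read from a fit over all 36495 non-control probe sets. The code was tested on simulated data. Folds are ratios of geometric means, and levels are arithmetic means. Correlations of the Hspd1 probe sets with each other and with Hspe1 used two-sided permutation tests.

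Whether same-numbered arrays pair was checked by correlating deviations from group means across genes. All 5 pairs were over 0.1 only in C4BPD against IAPP (0.15 to 0.31), so the block stands beside that result. It is also given for Dnajb1 and Hsph1, which differed most by title number. The alternatives were other scalings, filters, weights, blocks and groupings and the removal of each array and title number.

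The genes and lists were chosen with earlier results of these data known. The text names the measured listed genes, in each other list up to 4 genes with the smallest p among those past the threshold (a selection for the ER), members of known role chosen to illustrate a list without a call, and the 5 genes most correlated with Bag3. Promoter sequences came from RefSeq (GRCr8) for all 7 genes and were searched with Python 3.11.15, and figures were drawn with matplotlib 3.10.9.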

Additional observations from a re-analysis of the deposited data

Results flagged for a closer look

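For Hsph1, the array C4BP 5 had an intensity of 1656, while the other 4 C4BP arrays lay between 1886 and 1930. The gap to the nearest array was 0.84 of the range of the group, above Dixon's critical value of 0.71 for 5 arrays. The arrays numbered 5 were also the lowest for Hsph1 in the other groups. Of the 28 groups of 5 arrays checked, 1 stood out in this way, and chance marks about 1 group in 20.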

How the results depend on the processing

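The counts of heat shock genes past the threshold were the same, 0, in IAPP against DMSO, C4BPD against DMSO, C4BP against IAPP and the interaction under all alternatives run. In C4BP against DMSO, C4BP against C4BPD and the F test the count of 1 became 0 with arrays centred on their medians and with groups from the treatment field. The first 2 of these counts were also 0 when all probe sets were tested together and when the compared groups were fitted alone. Over the 25 removals of an array or title number, these 3 counts ranged from 0 to 1. The log2 difference of Bag3 ranged from -0.16 to -0.23 and from -0.17 to -0.26 over the removals, against DMSO and C4BPD in turn.

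With the replicate block (title number) the count in C4BPD against IAPP was 1, Bag3, and the block changed no other count of these genes. Counts of ER chaperones with the block were 9, 10 and 11 in IAPP, C4BPD and C4BP against DMSO. They were 3, 3 and 9 with centred arrays, and 2, 2 and 8 when the compared groups were fitted alone.

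Grouping by the treatment field turned the direction of most called differences of named genes, and none of them passed. Against DMSO in IAPP, Zfand2a was then -0.02, Creld2 0.04, Sdf2l1 0.07, Dnajc3 0.02 and Manf 0.02. In C4BPD, Sdf2l1 was 0.00 and Hspa5 0.03, while Creld2 (-0.03) and Dnajc3 (-0.06) kept their sign. In C4BP, Bag3 was 0.08, Dnajc2 -0.13, Creld2 0.12, Sdf2l1 0.14, Hspa5 0.08 and Dnajc3 0.07. Bag3 was 0.10 in C4BP against C4BPD, and in C4BPD against IAPP Hspb6 was -0.08 and Zfand2a 0.01. That grouping puts other arrays in each group.

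Of 1652 checks of single heat shock gene differences with the title groups kept, 1628 stayed on the same side of the threshold, which for nearly all meant no call in either fit, 23 lost a call and 1 gained one. No called difference turned direction in these. Levels near background limit Hspb1, the other small heat shock proteins except Hspb6, and the probe set of Hspa1a and Hspa1b. Tight intervals bound the array signal of the 7 measured genes at 10 h, which for Hspb1 was not shown to be above background. The intervals say nothing of other times or of protein.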
